A study of Mus musculus with 36 samples.

Results

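Tumours grown from the mouse bladder cancer cell line BBN963 were compared with primary bladder tumours of the same carcinogen model. The members were chosen by label alone: the 2 columns of BBN963 line-derived tumours and the 11 columns of BBN primary tumours, together 13 of the 36 libraries of the series. BBN is N-butyl-N-(4-hydroxybutyl)nitrosamine, a bladder carcinogen. The primary tumours came from mice of genotype Ctrl that were given it, whereas the line-derived tumours and the 1 library of cultured BBN963 cells carry the genotype label Ctrl and the treatment label Untreated. In the second model, UPPL, the genotype combines the inducible recombinase Upk3a-CreERT2, driven by a uroplakin promoter, with the alleles p53f/f and Ptenf/f and the reporter Rosa26LSL-Luc. Its 9 primary tumours and 4 tumours of the line UPPL1541 were in the same fit. Both BBN963 tumours come from 1 line, so they are not independent lines. The host mice, the site of growth, the ages and how the line was made are not given in the sources used here.

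The urothelium is a layered epithelium. Its superficial luminal cells carry plaques of uroplakins and make simple keratins, and its basal cells make Krt5 and Krt14 and rest on a laminin matrix. Bladder tumours of carcinogen-treated mice are known for basal and squamous features. A tumour grown from a line starts from cultured cancer cells alone, and its stroma, vessels and immune cells come from the host. Interferon gamma, made mainly by T and natural killer cells, induces the genes of antigen presentation in many cell types. Low oxygen stabilises hypoxia-inducible factors, which switch on genes of glycolysis and of the response to low oxygen.

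Expression was given as deposited units, RSEM gene estimates scaled in each library so that the upper quartile of values above 0 was 1000. The BBN963 tumours held, in Mreads (reads divided by 1000000), 10.6 and 11.9 of recovered reads, the BBN primary tumours 9.29 to 17.9 and the culture 11.3. The most frequent low value was 19 reads in line-derived tumour 1, 9 in tumour 2, 3 to 15 in the primary tumours and 1 in the culture, so that a 0 in a tumour can stand for a few reads. Genes with at least 10 units in 2 or more of the 26 tumour libraries of both models were fitted together with limma on log2(value + 1), and a gene was called at a Benjamini-Hochberg adjusted p under 0.05. Log2 differences below are on that scale, line-derived minus primary. For low genes the added 1 can understate a change, and a 0 that stands for a few reads can overstate it. Nothing in the labels says how the tumours were allotted to mice, so the p-values measure the spread between these samples. In bulk tissue, fewer cells of a type and less RNA per cell cannot be told apart.

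Of 15229 genes tested, 318 were higher in the line-derived tumours (2.09% of the genes tested) and 864 were lower (5.67%). The median log2 difference over all genes was -0.17, and it was -0.050 after quantile normalization and -0.032 after median-of-ratios scaling. Both line-derived tumours lay above all 11 primary tumours in 262 of the higher genes and below all of them in 606 of the lower genes, where 5.42% and 7.39% of all genes tested did so. Higher calls made up 26.9% of the calls, 38.6% after median-of-ratios scaling (427 higher, 680 lower) and 42.9% in edgeR on recovered reads (313 higher, 416 lower). Without line-derived tumour 1 the calls numbered 78 higher and 154 lower, and without tumour 2 they numbered 84 and 569. In each case the remaining tumour was assumed to vary like the other groups. In a fit chosen after seeing the data, without the 4 tumour libraries in which low values were most often at 10 or more reads, tumour 1 among them, 75 genes were higher and 234 lower.

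The cultured cells placed these changes. A change was counted as already in culture when the culture lay beyond all 11 primary tumours in the same direction and at least 2-fold from their mean log2 value, a place that 11.0% of all genes tested held above the primary tumours and 9.09% below them. By this rule 61 of the 318 higher genes (19.2%) and 236 of the 864 lower genes (27.3%) were already in culture. A further 27 higher and 60 lower genes lay beyond the primary tumours on the other side in culture. Of the higher genes, 114 were under 10 units in the culture and 84 of them were at 0, so that the cultured cells had little or none of their RNA. There was 1 culture library, and these placements have no replicate check.

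**Figure D1:**
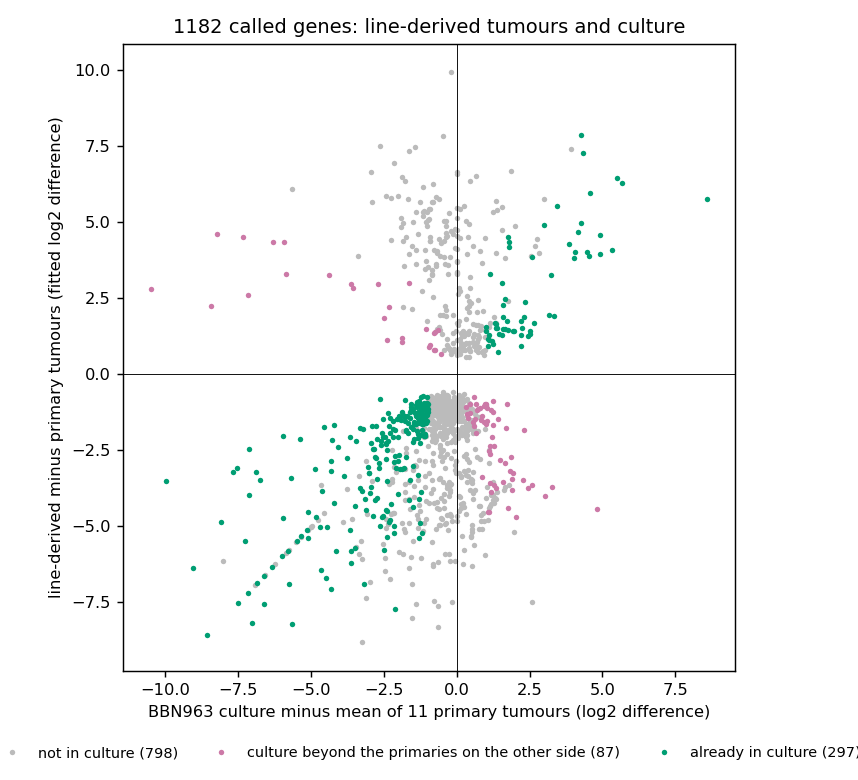
Called genes by their difference between the BBN963 culture and the mean of 11 BBN primary tumours (horizontal axis, log2) and between line-derived and primary tumours (vertical axis, fitted log2 difference). Each point is 1 gene. Green points, already in culture, number 297, and grey points, not in culture, number 798 and cluster near 0 on the horizontal axis among the higher genes. The straight lower edge of points on the left is made of genes listed at 0 in the culture and in both line-derived tumours.

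The calls were unevenly spread over 33 gene lists that describe epithelial state, stroma, immune cells and metabolism. Higher calls were found in 6 of 11 genes of class II antigen presentation, 9 of 18 of hypoxia and glycolysis, 11 of 17 cytotoxic genes and 8 of 17 skeletal muscle genes. Of these, 3 cytotoxic and 4 muscle calls were in genes that passed the filter only through the line-derived tumours. Lower members were found in 7 of 20 luminal genes. In the fit of the 13 BBN tumours alone, 6 of the 6 class II, 10 of the 11 cytotoxic, 7 of the 9 hypoxia and glycolysis, 2 of the 7 luminal and 1 of the 8 muscle calls stayed. Of the muscle genes, Atp2a1, Myh1, Myh2, Myh4 and Myh8 fell under the filter in that fit and were not tested there. The 10 cytotoxic calls include Prf1, Gzme and Ifng, the 3 that passed the filter only through the line-derived tumours. That these 3 stayed is therefore no check of them, and the call lost was that of Klrd1. That fit also kept 6 of 7 interferon, 4 of 5 class I, 2 of 5 T cell, 1 of 3 mast cell, 1 of 3 chemokine and 1 of 3 junction calls, and none of those in the proliferation, matrix, mesenchymal, checkpoint and sterol lists.

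**Figure D2:**
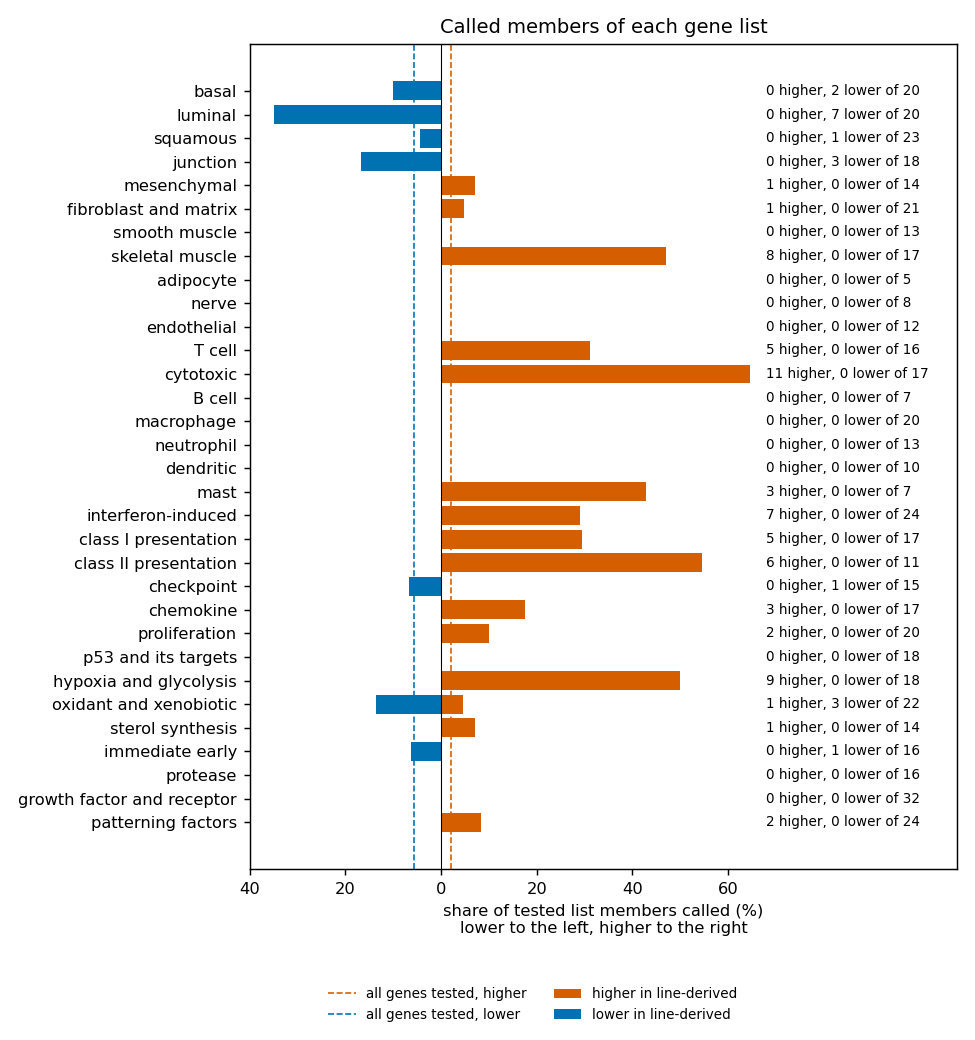
Share of the tested members of each list called lower (left, blue) or higher (right, orange) in the 2 BBN963 line-derived tumours against the 11 BBN primary tumours, with the counts at the right. Dashed lines mark the shares over all 15229 genes tested, 5.67% lower and 2.09% higher. All tested members are counted, those that passed the filter only through the line-derived tumours included. The cytotoxic list reaches furthest to the right and the luminal list furthest to the left.

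Among single genes, the largest rises included genes of matrix and of immune attraction. Tnn, which encodes the matrix protein tenascin W, was 4197 and 293 units in the line-derived tumours against 0 to 3.14 in the primary tumours (median 0), with 10 of the 11 primary tumours at 0 (log2 difference 9.93, SE 1.08, adjusted p = 9.22e-07). Lrrc15, a gene of activated fibroblasts, stood at 4631 and 1935 units in the line-derived tumours against 0 to 141 in the primary tumours (median 34.6) (log2 difference 7.84, SE 1.77, adjusted p = 0.00623). Ccl11, which encodes the eosinophil attractant eotaxin, was 4669 and 2773 units in the line-derived tumours against 0 to 187 in the primary tumours (median 23.6) (log2 difference 7.35, SE 1.47, adjusted p = 0.00222). All 3 were under 10 units in the culture, and in each both line-derived tumours lay above every primary tumour. Chi3l4, a chitinase-like gene, was also high in both tumours, at 1892 and 673, but overlapped the primary tumours, whose highest value was 1578 (log2 difference 7.497, SE 2.14, adjusted p = 0.0295). Prss35, a serine protease-like gene, was 881 and 259 units in the line-derived tumours against 0 to 30.2 in the primary tumours (median 0). Slit1, an axon guidance ligand, was 254 and 376 units in the line-derived tumours against 0 to 37.3 in the primary tumours (median 0), with 26.8 in the culture. Without tumour 1, Tnn and Slit1 stayed called (adjusted p = 0.00142 and 0.012), and Lrrc15, Ccl11, Chi3l4 and Prss35 did not (0.179, 0.0895, 0.356 and 0.0897). Without tumour 2 the adjusted p was 3.18e-06 for Tnn, 0.011 for Slit1, 0.0477 for Lrrc15, 0.0249 for Ccl11, 0.127 for Chi3l4 and 0.00982 for Prss35.

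The largest rises that were already in culture were in 3 genes of embryonic patterning or signalling and 1 chemokine. Crabp1, a retinoic acid binding protein, was 867 and 202 units in the line-derived tumours against 0 to 17.6 in the primary tumours (median 0) and 32.8 in the culture (log2 difference 7.88, SE 0.916, adjusted p = 2.49e-06). Tbx15, a T-box transcription factor, was at 307 and 123 against at most 11.0 in the primary tumours, and at 24.3 in the culture (log2 difference 7.28, SE 0.840, adjusted p = 2.23e-06). Shox2, a homeobox factor of limb and heart, was at 217 and 74.8 against at most 25.9, and at 81.5 in the culture (log2 difference 6.29, SE 1.22, adjusted p = 0.00165). Primary tumour BBN963, which carries the number of the line, was at 0 for Tbx15 and Shox2 and at 8.33 for Crabp1. Ccl7, a monocyte attractant, was 511 and 739 units in the line-derived tumours against 0 to 57.2 in the primary tumours (median 22.5) and 231 in the culture (log2 difference 5.98, SE 1.642, adjusted p = 0.0238). Without tumour 1 the adjusted p of these 4 genes was 0.00208 for Crabp1, 0.00138 for Tbx15, 0.105 for Shox2 and 0.224 for Ccl7, and without tumour 2 it was 3.11e-05, 5.53e-05, 0.0119 and 0.186.

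Several of the largest falls were genes listed at 0 in both line-derived tumours. Fxyd4, a regulator of the sodium pump, was at 0 in both tumours and in the culture and at 35.3 (lowest), 551 (median) and 1014 (highest) in the primary tumours. Fbp2, an isoform of the gluconeogenic fructose bisphosphatase, was at 0 in both tumours, 4.87 in the culture and 94.3 to 882 in the primary tumours. Fer1l4, a ferlin-like gene, followed the same pattern, at 0, 0, 1.22 and 23.6 to 768. With each 0 set to the most frequent low value of its library, 19 and 9 reads, the mean of the primary tumours was 29.6-fold higher for Fxyd4, 20.6-fold for Fbp2 and 23.6-fold for Fer1l4. Folds against a group at 0 are given in this way below. Slc16a11, a monocarboxylate transporter family gene, was at 0 and 3.68 against 152 to 2447, with 103 in the culture (log2 difference -7.70, SE 0.945, adjusted p = 5.61e-06). These 4 falls were already in culture.

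Itga2, the integrin alpha subunit that binds collagen with beta 1, was at 0 in both tumours but at 201 in the culture and at 46.2 to 2527 in the primary tumours (adjusted p = 8.22e-05, 35.8-fold lower against the most frequent low values). Gpr126, an adhesion receptor, was at 0 and 4.90 against 48.4 to 2106, with 219 in the culture (log2 difference -8.02, SE 0.867, adjusted p = 9.07e-07). Msx2, a homeobox factor, was at 0 in both tumours and at 124 in the culture, and primary tumour BBN963 was also at 0 (adjusted p = 0.00101). Both Itga2 and Gpr126 lay below all primary tumours in the line-derived tumours and within their range in the culture. Fxyd4, Fbp2, Fer1l4, Slc16a11, Itga2 and Gpr126 stayed called without either line-derived tumour (adjusted p at most 0.00724, for Itga2 without tumour 1), and Msx2 had adjusted p = 0.0437 without tumour 1 and 0.0209 without tumour 2.

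Luminal genes were lower in part, and few basal genes were called. Of 20 luminal genes, 7 were lower, 0 were higher and 13 were not called, with a median log2 difference of -2.07. The 5 uroplakin genes on the list and Snx31, a sorting nexin of superficial cells, were at 0 in both line-derived tumours. Upk1b, which encodes a tetraspanin of the uroplakin plaques, was at 0 (lowest), 1502 (median) and 4029 (highest) in the primary tumours and at 46.2 in the culture (adjusted p = 0.00437, 85.3-fold lower against the most frequent low values). Upk2, another plaque protein gene, was at 0 (lowest), 156 (median) and 987 (highest) in the primary tumours and 41.4 in the culture (adjusted p = 0.0201, 14.2-fold lower on the same footing). Upk3a was at 0 in both tumours too, but its primary tumours spanned 0 to 635 with a median of 5.20, and it was not called (adjusted p = 0.474). Primary tumour BBN963 was low in these genes, at 27.1 for Upk1b, 18.7 for Upk2 and 5.20 for Upk3a.

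Of the 5 keratin genes on the luminal list, Krt8, Krt18 and Krt19 were lower, and Krt7 and Krt20 were not called (adjusted p = 0.146 and 0.776). Krt18 was 103 and 172 units in the line-derived tumours against 207 to 12868 in the primary tumours (median 2306) and 4462 in the culture (log2 difference -4.06, SE 0.915, adjusted p = 0.00607). Its partner Krt8 was 85.0 and 99.3 units in the line-derived tumours against 169 to 9905 in the primary tumours (median 1967) and 3580.3 in the culture (log2 difference -3.88, SE 0.980, adjusted p = 0.0142). Both line-derived tumours lay below every primary tumour in Krt8 and Krt18, and the culture lay within the range of the primary tumours in both. Pparg, the nuclear receptor of luminal differentiation, was at 88.8 in tumour 1 and 0 in tumour 2 against 22.5 (lowest), 454 (median) and 877 (highest) in the primary tumours, and at 0 in the culture (log2 difference -4.86, SE 1.12, adjusted p = 0.00739). It was the called luminal gene that was already in culture. Tumour 1 lay within the primary range of Pparg. The log2 difference of Pparg was -8.105 without tumour 1 and -1.616 without tumour 2. EdgeR on recovered reads did not call it (adjusted p = 0.0983). Without tumour 1, 1 of the 7 calls stayed (Pparg, with adjusted p over the 7 of 0.000366 to 0.43), without tumour 2 1 did (Krt18, 0.0444 to 0.56), and edgeR on recovered reads kept 4. Upk3b lost its call in 6 fits without 1 primary tumour (up to 0.0587, without BBN973).

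**Figure D3:**
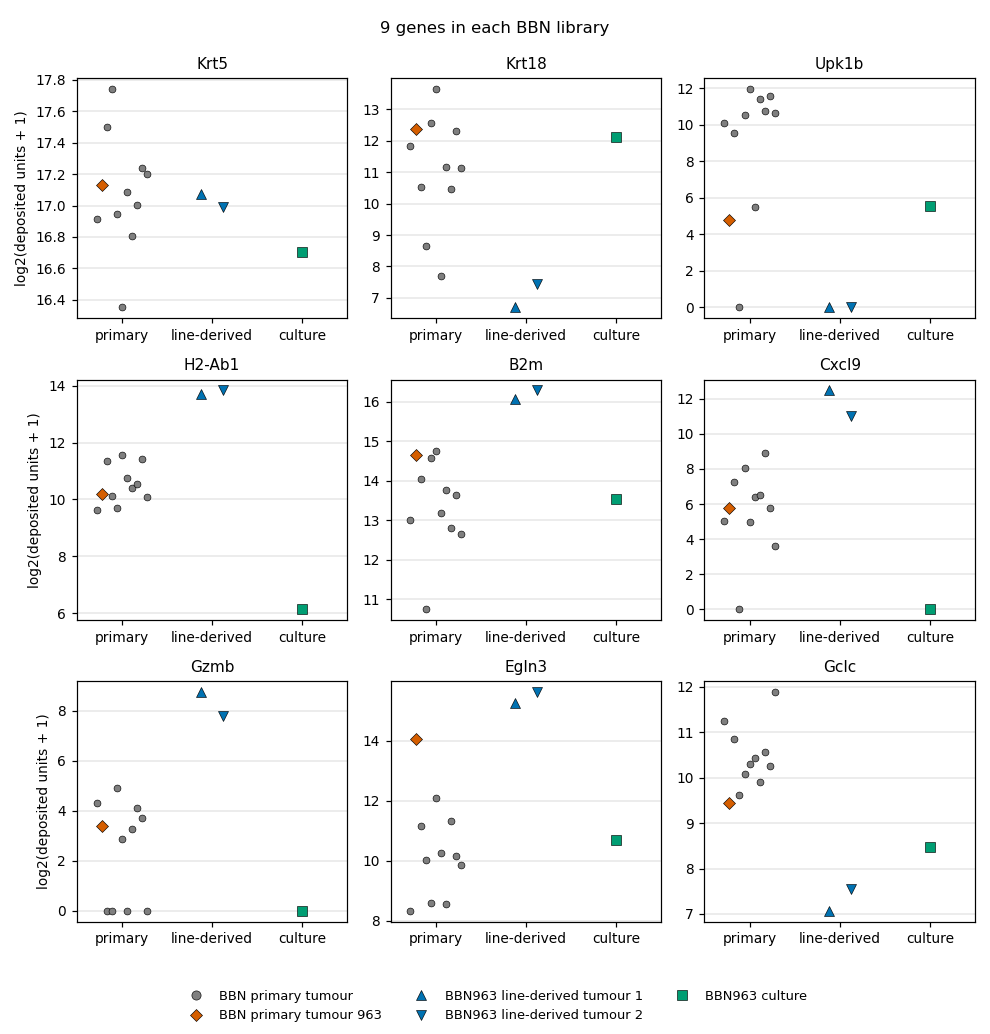
Values of 9 genes in each BBN library, as log2(deposited units + 1) on the vertical axis, with 11 primary tumours (tumour BBN963 as a diamond), 2 line-derived tumours and 1 culture side by side. Each panel has its own axis. Both line-derived tumours lie above every primary tumour in H2-Ab1, B2m, Cxcl9, Gzmb and Egln3, below every one in Krt18 and Gclc, and within their range in Krt5.

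Of 20 basal genes, 0 were higher and 2 were lower, with a median log2 difference of -0.10 (0.041 after median-of-ratios scaling). Krt5, the defining basal keratin, was 137660 and 130270 units in the line-derived tumours against 83565 to 219550 in the primary tumours (median 139370) (log2 difference -0.05, SE 0.725, adjusted p = 0.975). Krt14 was at 250370 and 229050 against 46807 to 260060 (log2 difference 1.15, SE 0.955, adjusted p = 0.503). The 2 lower genes were Itga6, the integrin alpha subunit of hemidesmosomes (3090.1 and 2382 units in the line-derived tumours against 4144 to 8831 in the primary tumours (median 7281), log2 difference -1.22, SE 0.350, adjusted p = 0.0303), and Krt15, a keratin of the basal layer (1919 and 2424 units in the line-derived tumours against 1776 to 87510 in the primary tumours (median 35610), log2 difference -3.21, SE 0.980, adjusted p = 0.0428). Both were already in culture, where Itga6 was at 2069 and Krt15 at 167. Neither call stayed without tumour 1 or without tumour 2 (adjusted p = 0.182 to 0.371 and 0.192 to 0.282), and median-of-ratios scaling ended both (0.0533 and 0.0581). Krt15 also lost its call in 6 fits that left out 1 primary tumour (up to 0.0563, without BBN964).

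Of 23 squamous genes tested, 1 was lower, 0 were higher and 22 were not called, with a median log2 difference of 2.25 that was 1.16 in edgeR on recovered reads. Ivl, which encodes the cornified envelope protein involucrin, was 612 and 822 units in the line-derived tumours against 1514 to 17600 in the primary tumours (median 7911) and 207 in the culture (log2 difference -3.10, SE 0.613, adjusted p = 0.00203). Krt1, a keratin of cornifying layers, was at 1423 and 773 against 18.7 (lowest), 13157 (median) and 47671 (highest) and was not called (adjusted p = 0.733). Sprr2d, another envelope protein gene, was at 5506 and 3925 against 26.2 to 2459.6 (adjusted p = 0.106), and Dsg1a, a desmosomal cadherin gene, at 2033 and 1120.1 against 0 to 665 (adjusted p = 0.125). Both lay above all primary tumours without being called, and the culture held 18.2 and 0. Without tumour 1 the adjusted p of Ivl was 0.094, and without tumour 2 it was 0.0213.

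Among 18 genes of epithelial junctions and identity, 3 were lower and 0 were higher (median log2 difference -0.50). Cldn7, a tight junction claudin, was 145 and 244 units in the line-derived tumours against 169 to 3206 in the primary tumours (median 1623), with 1663 in the culture (log2 difference -2.79, SE 0.660, adjusted p = 0.00884). Grhl2, an epithelial transcription factor, was 1173 and 1319.9 units in the line-derived tumours against 1566 to 2937 in the primary tumours (median 1983) (log2 difference -0.66, SE 0.198, adjusted p = 0.0373), and Esrp2, an epithelial splicing factor, was 477 and 1043 units in the line-derived tumours against 887 to 2445 in the primary tumours (median 1453) (log2 difference -1.01, SE 0.315, adjusted p = 0.0469). Cdh1, which encodes E-cadherin, was 9048 and 11806 units in the line-derived tumours against 10821 to 31426 in the primary tumours (median 19695) and was not called (adjusted p = 0.133). Without tumour 1 none of the 3 calls stayed (adjusted p = 0.24 to 0.725), and without tumour 2 Cldn7 and Esrp2 did, at 0.0448 and 0.0217. Under quantile normalization, median-of-ratios scaling and edgeR on recovered reads, 1 of the 3 was called. Esrp2 lost its call in 8 fits that left out 1 primary tumour (up to 0.0621, without BBN975) and Grhl2 in 1 (0.0504, without BBN964).

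Class II antigen presentation was higher in both line-derived tumours. Class II molecules, which present peptides to CD4 T cells, are made by dendritic cells, macrophages and B cells and, after interferon gamma, by some epithelial cells. Promoters of their genes are known to share a set of short elements that includes an inverted CCAAT box. The promoters of the 4 called genes with an entry in the RefSeq table are shown because those genes moved together. They run from 250 bases before the start to 50 after it on GRCm38.p6, and capitals mark ATTGG on either strand.
H2-DMb1 (chr17:34152941-34153240, plus strand): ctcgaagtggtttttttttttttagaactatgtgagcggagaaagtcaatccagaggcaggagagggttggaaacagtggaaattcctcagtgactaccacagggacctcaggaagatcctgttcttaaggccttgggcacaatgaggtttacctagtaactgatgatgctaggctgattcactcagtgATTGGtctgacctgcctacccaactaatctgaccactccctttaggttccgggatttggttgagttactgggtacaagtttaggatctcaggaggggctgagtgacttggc
H2-DMa (chr17:34125268-34125567, plus strand): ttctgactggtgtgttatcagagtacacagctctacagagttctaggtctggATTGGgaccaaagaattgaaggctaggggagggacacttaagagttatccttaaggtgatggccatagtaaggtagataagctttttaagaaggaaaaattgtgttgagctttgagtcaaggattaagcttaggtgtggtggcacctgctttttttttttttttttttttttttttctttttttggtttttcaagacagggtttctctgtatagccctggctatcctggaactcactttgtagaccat
H2-Eb1 (chr17:34305617-34305916, plus strand): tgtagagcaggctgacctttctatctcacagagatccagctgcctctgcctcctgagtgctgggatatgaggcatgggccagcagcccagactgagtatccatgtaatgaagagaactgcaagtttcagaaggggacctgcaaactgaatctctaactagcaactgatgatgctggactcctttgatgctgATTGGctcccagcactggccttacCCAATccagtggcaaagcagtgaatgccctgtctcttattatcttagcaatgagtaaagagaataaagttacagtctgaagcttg
H2-Aa (chr17:34287774-34288073, minus strand): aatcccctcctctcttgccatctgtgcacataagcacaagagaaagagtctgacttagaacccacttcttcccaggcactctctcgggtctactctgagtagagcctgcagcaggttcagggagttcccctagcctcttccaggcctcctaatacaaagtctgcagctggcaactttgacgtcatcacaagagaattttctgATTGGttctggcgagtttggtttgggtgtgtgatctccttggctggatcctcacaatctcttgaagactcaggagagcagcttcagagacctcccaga
The first base of the first match lay 61 bases before the start in H2-DMb1, 59 in H2-Eb1, 48 in H2-Aa and 198 in H2-DMa. H2-DMa has 2 starts in the table, and the first with a match is shown. ATTGG or its complement CCAAT was present in 37.4% of the 32851 promoters in the table and in 7 of the 8 class II list members with an entry. A member was counted if any of its starts had a match, so the 2 shares are not on the same footing. A match is a description of the letters and not evidence of binding.

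Of 11 class II genes tested, 6 were higher and 0 were lower, with a median log2 difference of 3.26, and both tumours lay above all primary tumours in 9. H2-Ab1, a beta chain, was 13544 and 14634 units in the line-derived tumours against 796 to 3046 in the primary tumours (median 1364) (log2 difference 3.26, SE 0.761, adjusted p = 0.00802). H2-Aa, its alpha chain partner, was 9456 and 10755 units in the line-derived tumours against 745 to 2873 in the primary tumours (median 1562) (log2 difference 2.80, SE 0.713, adjusted p = 0.0153). Cd74, the invariant chain, was 30732 and 31661 units in the line-derived tumours against 1690.3 to 6989 in the primary tumours (median 2857) (log2 difference 3.30, SE 0.711, adjusted p = 0.00414). H2-Eb1 stood at 7376 and 7986 against at most 2116 (log2 difference 2.99, SE 0.709, adjusted p = 0.00891). The peptide exchange factor genes H2-DMa (1241 and 985 against 56.8 to 199.5) and H2-DMb1 (1405 and 1224 against 53.9 to 321) were called as well, at adjusted p = 0.0283 and 0.0482.

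The cultured cells held little of these transcripts. The culture was at 0 for H2-Aa, 69.3 for H2-Ab1, 53.5 for Cd74 and 305 for H2-Eb1, below all 11 primary tumours in each of the 4. Summed over the list, the class II level was 546 units in the culture, 5048 to 16928 in the primary tumours and 68487 and 72974 in the line-derived tumours. Macrophage, dendritic and B cell genes, whose cells carry class II, had 0 of 20, 0 of 10 and 0 of 7 members called. The summed macrophage level was 21542 and 30375 in the line-derived tumours against 6244 to 37815 in the primary tumours, above 8 and 10 of the 11. The dendritic sum was 6848 and 7259 against 3472 to 7338, above 9 and 10 of the 11. The B cell sum was 1232 and 1031, above 10 of the 11 in both tumours, since the primary maximum of 6505 was primary tumour BBN975 and the next highest primary tumour was at 529. The median log2 difference of the B cell list was 1.08, and it was -0.41 without tumour 1 and 2.91 without tumour 2. Its member Cd79a was at 0 in both line-derived tumours. The primary mean of Cd79a, 6.88 units, lay under their most frequent low value of 17.6 units, so no difference can be read from that 0. The part of these cells in the class II level was not tested. Without tumour 1 the 6 class II calls were lost (adjusted p = 0.0992 to 0.376), as they were without tumour 2 (0.0573 to 0.225), whereas edgeR on recovered reads kept all 6. H2-DMb1 also lost its call without primary tumour BBN963 (0.05) and without 9 others taken singly (up to 0.0632).

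Class I presentation was higher in 5 of 17 genes tested, with 0 lower, a median log2 difference of 2.19 and 12 genes above all primary tumours. B2m, the light chain of class I, was 68708 and 80183 units in the line-derived tumours against 1718 to 27803 in the primary tumours (median 12794) (log2 difference 2.74, SE 0.828, adjusted p = 0.0406). Tap1, a subunit of the peptide transporter, was 5812 and 4509.8 units in the line-derived tumours against 86.7 to 1833 in the primary tumours (median 931) (log2 difference 2.64, SE 0.709, adjusted p = 0.021). Psmb10, an immunoproteasome subunit, was 2546 and 2278 units in the line-derived tumours against 175 to 673 in the primary tumours (median 480.3) (log2 difference 2.42, SE 0.426, adjusted p = 0.000625). H2-T23, a nonclassical class I gene, was 6704 and 6888 units in the line-derived tumours against 874 to 3056 in the primary tumours (median 1929.9) (log2 difference 1.91, SE 0.388, adjusted p = 0.00257), and Tapbp, the tapasin gene, 7412 and 6533 units in the line-derived tumours against 2595 to 4369 in the primary tumours (median 3364) (log2 difference 0.99, SE 0.249, adjusted p = 0.0135). Of the called genes none was already in culture, where B2m was at 11864, Tap1 at 849 and Psmb10 at 599. Reads of the class I genes H2-K1, H2-D1, H2-Q6 and H2-Q7 can be shared between near-identical copies, so their values are uncertain. Psmb10 stayed called without tumour 1 (adjusted p = 0.0406) and, like H2-T23, without tumour 2 (0.0118 and 0.0426), and the other calls were lost, up to 0.291 and 0.24. B2m lost its call without primary tumour BBN976 (0.0549) and in 2 other such fits.

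Among 24 interferon-induced genes, 7 were higher, 0 were lower and 17 lay above all primary tumours in both line-derived tumours (median log2 difference 2.61). Cxcl9, a chemokine induced by interferon gamma that attracts T cells, was 5716 and 2087 units in the line-derived tumours against 0 to 476 in the primary tumours (median 53.9) and 0 in the culture (log2 difference 6.10, SE 1.62, adjusted p = 0.0196). Irf1, a transcription factor induced by interferon, was 3229.7 and 2612 units in the line-derived tumours against 752 to 1639 in the primary tumours (median 937) (log2 difference 1.46, SE 0.323, adjusted p = 0.00522). Ifit2, an antiviral effector, was 1279 and 810.0 units in the line-derived tumours against 40.5 to 423 in the primary tumours (median 98.5) (log2 difference 3.20, SE 0.743, adjusted p = 0.00769). Irgm1, an immunity-related GTPase, was 5858 and 5895 units in the line-derived tumours against 93.5 to 1907 in the primary tumours (median 1404) (log2 difference 2.56, SE 0.735, adjusted p = 0.0309). Gbp2, a guanylate-binding protein gene, was at 9599 and 7043, above the primary maximum of 4911, and was not called (adjusted p = 0.115). No called interferon gene was already in culture. Without tumour 1, 0 of the 7 calls stayed (adjusted p = 0.182 to 0.396), and without tumour 2, 2 did (0.036 to 0.191). Cxcl10, another such chemokine, lost its call in 3 fits without 1 primary tumour (up to 0.0564, without BBN976).

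Transcripts of cytotoxic lymphocytes were higher in both line-derived tumours. Of 17 cytotoxic genes tested, 4 (Prf1, Gzme, Ifng and Fasl) reached the filter in fewer than 2 of the other 24 libraries, so that they were tested only because the line-derived tumours were high. Among the other 13, 8 were higher and 0 were lower, where 290 of 15122 such genes were higher in all. Gzmb, the granzyme of activated killer cells, was 429 and 219 units in the line-derived tumours against 0 to 29.04 in the primary tumours (median 8.74) (log2 difference 5.85, SE 1.44, adjusted p = 0.0117). Gzmc was at 117 and 60.05 against at most 15.7 (log2 difference 5.44, SE 1.01, adjusted p = 0.00111), and Nkg7, a granule membrane gene, at 91.4 and 71.1 against at most 30.7 (log2 difference 5.43, SE 1.04, adjusted p = 0.00153). Of the genes that depended on the filter, and without a test, Prf1, which encodes perforin, was at 29.2 and 12.3 against at most 5.62, and Ifng, which encodes interferon gamma itself, was at 67.3 and 12.3 against at most 3.60. Gzme was at 102 and 88.2 and at 0 in all 11 primary tumours, 13.5-fold higher against the most frequent low values of the primary tumours. Gzmc, Gzmd, Gzme and Gzmf are close paralogs between which reads can be split.

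Of the 21 genes on the cytotoxic list, 19 were at 0 in the culture, which held 51.1 units of Eomes and 105 of Ccl5, and Ccl5 was the called gene that was already in culture. The summed level was 2429 and 1802 units in the line-derived tumours, 29.7 to 314 in the primary tumours (median 98.4) and 156 in the culture. Many of these genes rest on few reads. Without tumour 1, 0 of the 8 calls stayed (adjusted p of at least 0.0648). Without tumour 2, 4 stayed (Gzmc, Cd8b1, Nkg7 and Xcl1, with 0.0116, 0.034, 0.0214 and 0.0391), and edgeR on recovered reads kept Gzmb and Ccl5 (0.0457 and 0.0343).

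General T cell genes followed in part. Of 16 tested, 5 were higher and 0 were lower (median log2 difference 2.37). Cd3d, a chain of the T cell receptor complex, was 103 and 141 units in the line-derived tumours against 0 to 24.3 in the primary tumours (median 0) (log2 difference 5.67, SE 1.25, adjusted p = 0.00483). Cd3e was at 39.3 and 71.1 against at most 21.5 (log2 difference 4.23, SE 1.26, adjusted p = 0.0382). The costimulatory receptor genes Cd28 (30.46 and 68.6 against at most 12.1) and Icos (123 and 45.3 against at most 23.6) were called too, at adjusted p = 0.0219 and 0.0435. None of the 5 stayed called without tumour 1 (adjusted p = 0.0895 to 0.524), without tumour 2 (0.0729 to 0.272) or in edgeR on recovered reads (0.0807 to 0.202). Leaving out 1 primary tumour ended the call of Icos in 7 fits (up to 0.0569, without BBN973) and of Cd3e in 2 (up to 0.0525, without BBN976). Among 15 checkpoint genes, Cd274, which encodes PD-L1, was 786 and 321 units in the line-derived tumours against 68.5 to 207 in the primary tumours (median 178) and was not called (adjusted p = 0.0636), and Pdcd1, which encodes PD-1, was at 15.2 and 63.7 against at most 23.6 (adjusted p = 0.102). The called checkpoint gene was Cd80, a ligand of CD28, which was lower at 34.3 and 89.5 against 96.0 to 1406, with 275 in the culture (log2 difference -2.72, SE 0.845, adjusted p = 0.0463, 0.511 without tumour 1 and 0.103 without tumour 2). The call of Cd80 also ended in 8 fits without 1 primary tumour (up to 0.0633, without BBN976).

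Mast cell protease genes and monocyte attractants were higher as well. Of 7 mast cell genes tested, 3 were higher: Mcpt4 (222 and 131 against at most 47.9, adjusted p = 0.00769), Cpa3 (109 and 30.6 against at most 22.9, adjusted p = 0.0139) and Cma1 (122 and 103 against at most 23.6, adjusted p = 0.0238). Kit, the receptor of mast cells, was within the primary range at 82.5 and 51.5. Without tumour 1 none of these 3 stayed called (adjusted p = 0.182 to 0.331), without tumour 2 1 did (Cpa3, 0.048), and edgeR kept none (0.0953 to 0.156). Ccl2, a monocyte attractant, was 1250 and 1849 units in the line-derived tumours against 0 to 738 in the primary tumours (median 36.3) and 10740 in the culture (log2 difference 5.77, SE 1.77, adjusted p = 0.043). Ccl8 was 2675 and 2044 units in the line-derived tumours against 0 to 423 in the primary tumours (median 34.1) but only 6.08 in the culture (log2 difference 6.50, SE 1.68, adjusted p = 0.0166). Together with Ccl7 these were the 3 higher genes among the 17 tested of the chemokine list. Ccl5, Cxcl9, Cxcl10 and Xcl1, chemokine genes on other lists, were higher too. Of the 3, Ccl2 and Ccl7 were already in culture and Ccl8 was not. Without tumour 1 the 3 calls were lost (adjusted p = 0.224 to 0.296), as without tumour 2 (0.114 to 0.254), and that of Ccl2 ended in 3 fits without 1 primary tumour (up to 0.0558, without BBN975). Cxcl1, a neutrophil attractant, was at 448 in the culture and at 0 and 4.90 in the line-derived tumours, against 0 (lowest), 15.7 (median) and 76.4 (highest) in the primary tumours (adjusted p = 0.403). In neutrophil genes none of 13 was called, and S100a8 stood at 1792 and 871 against 27.5 to 4068.

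**Figure D4:**
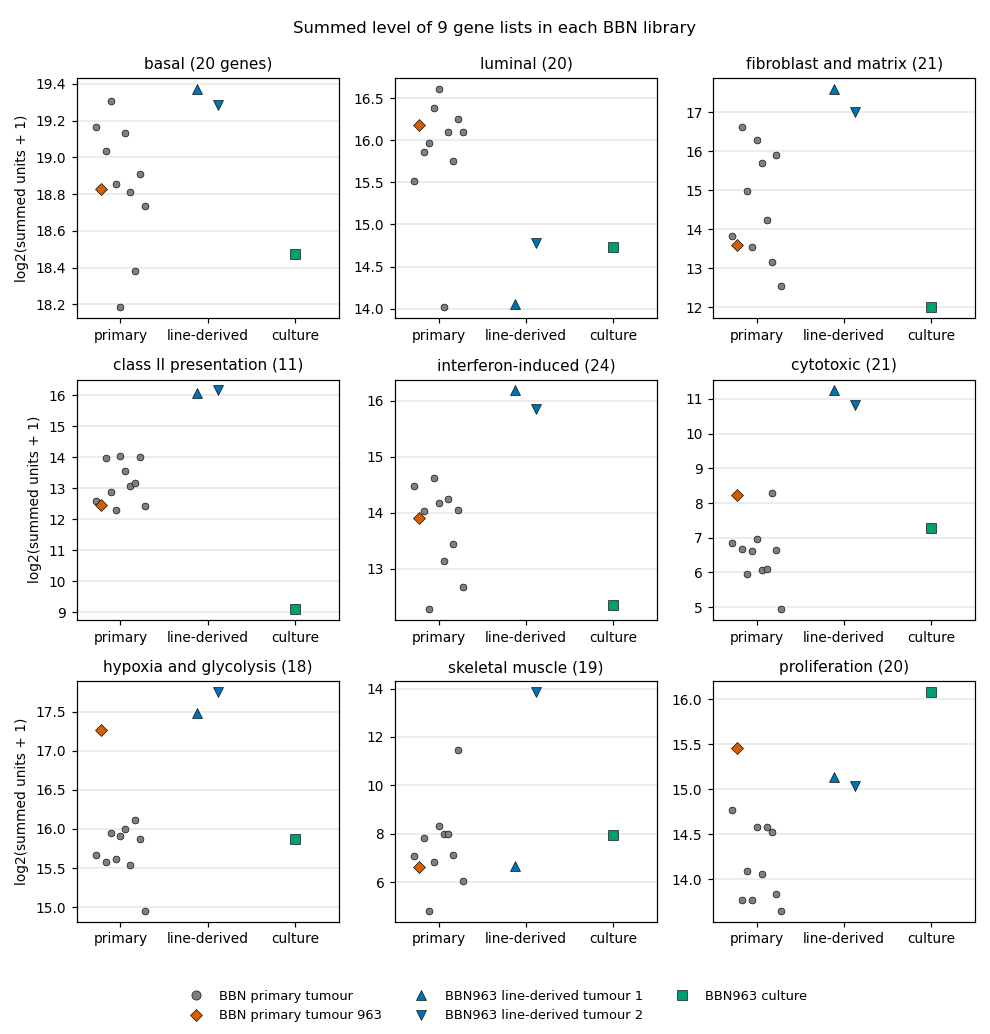
Summed level of 9 gene lists in each BBN library, as log2(summed deposited units + 1) on the vertical axis, with the 11 primary tumours (tumour BBN963 as a diamond), the 2 line-derived tumours and the culture. Each panel has its own axis. In skeletal muscle the 2 line-derived tumours stand apart, at 102 and 14815 units, and in hypoxia and glycolysis primary tumour BBN963 lies nearest to them.

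The summed matrix level was above every primary tumour in both line-derived tumours, but 1 matrix gene was called. Of 21 fibroblast and matrix genes, 1 was higher and 0 were lower, with a median log2 difference of 2.48 and 8 genes above all primary tumours. Col1a1, a chain of fibrillar collagen, was 36115 and 26033 units in the line-derived tumours against 89.5 to 12831 in the primary tumours (median 1335) and 23.1 in the culture (log2 difference 4.37, SE 1.37, adjusted p = 0.0481). Col6a1 was 6596 and 3086 units in the line-derived tumours against 20.9 to 2358 in the primary tumours (median 223) (adjusted p = 0.0547), and Postn, a matrix protein of activated stroma, was 21987 and 6244 units in the line-derived tumours against 139.9 to 6218 in the primary tumours (median 1142) (adjusted p = 0.0557). Pdgfra, a fibroblast receptor, overlapped the primary tumours at 428 and 269.6 against 3.30 to 449. The summed matrix level was 198070 and 131730 units against 5947 to 99697 in the primary tumours and 4083 in the culture. Among 14 mesenchymal genes Prrx1, a homeobox factor of mesenchyme, was higher (723 and 336 units in the line-derived tumours against 18.99 to 236 in the primary tumours (median 69.7), log2 difference 2.83, SE 0.834, adjusted p = 0.0356), with 4.87 in the culture. Vim, the vimentin gene, was 3708 and 2266 units in the line-derived tumours against 349 to 4589 in the primary tumours (median 1255) and was not called (adjusted p = 0.307). Col1a1 and Prrx1 lost their calls without tumour 1 (adjusted p = 0.395 and 0.447) and without tumour 2 (0.209 and 0.102), and Col1a1 also without any of 6 primary tumours taken singly (up to 0.0622, without primary tumour BBN968).

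Skeletal muscle genes were high in line-derived tumour 2 and not in tumour 1. Myh4, a fast myosin heavy chain gene, was at 0 in tumour 1, 1246 in tumour 2 and 0 in all 11 primary tumours and the culture. Atp2a1, the calcium pump of fast fibres, was at 1.27 and 1546 against at most 8.99, and Neb, the nebulin gene, at 24.1 and 357 against at most 15.7 (adjusted p = 0.0154). Acta1, the skeletal actin gene, was at 29.2 and 3036, with a primary maximum of 1615 (adjusted p = 0.361). Of 17 muscle genes tested, 6, Myh4 and Atp2a1 among them, passed the filter only through the line-derived tumours, and 4 of the other 11 were called higher. Tumour 1 held 102 units over the list, within the primary range of 27.03 to 2848, and tumour 2 held 14815. The primary maximum was primary tumour BBN975, with the next at 317. Without tumour 2, 0 of the 8 calls stayed, and those of Myh8, Myh1 and Mb also ended in 10, 9 and 8 of the fits without 1 primary tumour (up to 0.061, 0.0548 and 0.063). Atp2a1, Myh1, Myh2 and Myh4 fell under the filter without tumour 2 and were not tested there. The fat cell gene Car3 was at 769.6 in tumour 2, 0 in tumour 1 and at most 16.2 in the primary tumours, and Cfd at 50.2, 0 and 0, and neither was called. Summed over the fat cell list, tumour 2 held 868 units, tumour 1 0, primary tumour BBN975 826 and the next highest primary tumour 98.2. Genes of endothelial cells, smooth muscle and nerve had no called member, with Pecam1, an endothelial adhesion gene, at 799 and 797 against 124 to 1420.4, and Myh11, the smooth muscle myosin gene, at 93.9 and 119 against 10.8 (lowest), 1168 (median) and 60972 (highest).

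Genes of the response to low oxygen and of glycolysis were higher in both line-derived tumours. Hypoxia-inducible factors bind a short element with the core ACGTG. Promoters of the 3 called genes with the largest differences and a match in the table are shown, from 250 bases before the start to 50 after it on GRCm38.p6, with ACGTG on either strand in capitals.
Egln3 (chr12:54203825-54204124, minus strand): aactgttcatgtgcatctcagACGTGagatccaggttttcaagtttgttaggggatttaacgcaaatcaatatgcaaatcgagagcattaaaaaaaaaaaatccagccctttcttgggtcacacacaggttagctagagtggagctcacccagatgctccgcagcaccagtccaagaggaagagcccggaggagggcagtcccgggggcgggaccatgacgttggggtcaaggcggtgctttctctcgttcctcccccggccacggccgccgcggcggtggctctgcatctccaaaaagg
Bnip3 (chr7:138909457-138909756, minus strand): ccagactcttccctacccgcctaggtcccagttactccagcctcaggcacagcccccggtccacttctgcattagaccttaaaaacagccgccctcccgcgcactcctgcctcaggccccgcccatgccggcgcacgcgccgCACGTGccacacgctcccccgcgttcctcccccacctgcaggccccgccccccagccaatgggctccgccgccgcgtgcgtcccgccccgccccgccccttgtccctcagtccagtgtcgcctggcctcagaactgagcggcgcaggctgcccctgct
Higd1a (chr9:121857747-121858046, minus strand): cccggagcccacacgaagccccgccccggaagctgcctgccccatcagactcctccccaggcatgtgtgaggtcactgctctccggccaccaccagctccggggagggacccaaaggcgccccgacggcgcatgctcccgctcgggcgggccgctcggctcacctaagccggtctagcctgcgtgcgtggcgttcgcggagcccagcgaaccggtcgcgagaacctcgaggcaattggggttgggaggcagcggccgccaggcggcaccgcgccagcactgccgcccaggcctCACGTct
In Bnip3 the 2 matches overlap on opposite strands, and in Higd1a the match lies after the start. ACGTG or its complement was present in 19.6% of all promoters in the table, in 13 of the 17 list members with an entry and in 5 of the 8 called ones. Here too a member was counted if any of its starts had a match. Again these are letters in a window and not sites of binding.

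Of 18 hypoxia and glycolysis genes, 9 were higher and 0 were lower, with a median log2 difference of 1.44, and both tumours lay above all primary tumours in 9. Egln3, a prolyl hydroxylase that is itself induced by low oxygen, was 38871 and 50190 units in the line-derived tumours against 321 to 17069 in the primary tumours (median 1135) (log2 difference 5.03, SE 0.874, adjusted p = 0.000549). Ndrg1, a stress-induced gene, was 31359 and 37376 units in the line-derived tumours against 492 to 20362 in the primary tumours (median 2616) (log2 difference 3.56, SE 0.752, adjusted p = 0.0035). Bnip3, a mitophagy receptor gene, was 5817 and 7490.2 units in the line-derived tumours against 56.8 to 3041 in the primary tumours (median 395) (log2 difference 3.97, SE 0.854, adjusted p = 0.00402). The glycolytic enzyme genes Pgk1 and Hk2 were 2471 and 4315 units in the line-derived tumours against 387 to 2324 in the primary tumours (median 675) (log2 difference 2.08, SE 0.435, adjusted p = 0.0032) and 7188 and 5288 units in the line-derived tumours against 690.3 to 3761 in the primary tumours (median 2119) (log2 difference 1.70, SE 0.443, adjusted p = 0.0177), respectively. Slc2a1, which encodes the glucose transporter GLUT1, was at 14614 and 12162, above the primary maximum of 11501, and was not called (adjusted p = 0.127). Higd1a, a mitochondrial gene induced by low oxygen, was 1315 and 1868 units in the line-derived tumours against 167 to 1027 in the primary tumours (median 294) (log2 difference 2.24, SE 0.506, adjusted p = 0.00614). No called gene of this list was already in culture, where Egln3 was at 1664, Ndrg1 at 822 and Bnip3 at 541.

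Primary tumour BBN963 was the highest of the 11 primary tumours in 17 of these 18 genes, where it was highest in 11.4% of all genes tested. It held 17069 units of Egln3, 20362 of Ndrg1 and 3041 of Bnip3, and the next highest primary tumours held 4407, 5943 and 1255. The summed level was 158030 units in primary tumour BBN963, 70859 in the next highest primary tumour, 182390 and 220390 in the line-derived tumours and 59828 in the culture. Without primary tumour BBN963 all 9 calls stayed. Egln3 stayed called without tumour 1 (adjusted p = 0.0228) and without tumour 2 (0.018), and Pgk1 without tumour 1 (0.0271). The other calls did not, up to 0.316 and 0.307. EdgeR on recovered reads kept all 9. Eno1, an enolase gene, lost its call without 1 primary tumour (0.0506, without BBN976).

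Among all higher genes, primary tumour BBN963 was the highest primary tumour in 107 (33.6% against 11.4% of all genes tested), and among the lower genes it was the lowest, or at 0 with others, in 288 (33.3% against 25.4%). It was also the highest primary tumour in 17 of 20 proliferation genes and 11 of 14 sterol genes. Xist, the RNA of the inactive X chromosome, was at 2945 units in primary tumour BBN963, 4081 and 7072 in the line-derived tumours and 15290 in the culture, and the 4 Y-linked genes of the list were at 0 in all 4 of these libraries. In 5 of the 11 primary tumours, BBN963 among them, the Y-linked genes were all at 0 and Xist was at least 2509 units, and in the other 6 Xist was at most 13.5. Whether the line came from that tumour is not given in the sources used here, and sharing a number and these levels with it does not show it.

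Most proliferation genes overlapped the primary tumours. Of 20 tested, 2 were higher and 0 were lower (median log2 difference 0.93). Ube2c, a mitotic ubiquitin-conjugating enzyme gene, was 2482 and 2448 units in the line-derived tumours against 538 to 2574 in the primary tumours (median 749) (log2 difference 1.47, SE 0.389, adjusted p = 0.0193), and Cdk1, the mitotic kinase gene, was 2616 and 2857 units in the line-derived tumours against 739.9 to 3207 in the primary tumours (median 945) (log2 difference 1.26, SE 0.358, adjusted p = 0.0287). In both, primary tumour BBN963 was the maximum and the culture was higher still, at 3027 and 6254. Mki67, the gene of the Ki-67 antigen, was 4123 and 4165 units in the line-derived tumours against 2198 to 6446 in the primary tumours (median 3577), with 12150 in the culture (adjusted p = 0.778). The culture lay above all primary tumours by the 2-fold rule in 17 of the 20. Both calls were lost without tumour 1 (adjusted p = 0.232 and 0.238) and without tumour 2 (0.137 and 0.21), and edgeR on recovered reads kept 1. Of 14 sterol synthesis genes Cyp51, a demethylase of the pathway, was higher (11030 and 14466 units in the line-derived tumours against 375 to 7024 in the primary tumours (median 2812), log2 difference 2.27, SE 0.606, adjusted p = 0.0201), with 7811 in the culture. Cyp51 was not called without tumour 1 (0.176) or without tumour 2 (0.194).

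Of 22 genes of oxidant defence and xenobiotic metabolism, 1 was higher, 3 were lower and 18 were not called (median log2 difference -0.90). Over all genes tested, 2.09% were higher and 5.67% lower. Gclc, the catalytic subunit of the rate-limiting enzyme of glutathione synthesis, was 133 and 188 units in the line-derived tumours against 693 to 3778 in the primary tumours (median 1267) and 354 in the culture (log2 difference -3.10, SE 0.441, adjusted p = 4.78e-05). Aldh1a1, a retinaldehyde dehydrogenase gene, was 74.9 and 143 units in the line-derived tumours against 568 to 16630 in the primary tumours (median 1914) and 201 in the culture (log2 difference -4.10, SE 0.850, adjusted p = 0.00302). Both falls were already in culture, and both line-derived tumours lay below every primary tumour. Cyp1b1, a cytochrome P450 gene, was at 0 and 113 against 96.8 to 4658 and at 1268 in the culture (log2 difference -5.93, SE 1.26, adjusted p = 0.00353). Hmox1, which encodes haem oxygenase 1, was higher instead, at 2500 and 4591 units in the line-derived tumours against 139 to 1443 in the primary tumours (median 622) and 723 in the culture (log2 difference 2.56, SE 0.597, adjusted p = 0.00782). Nqo1, an oxidant-response enzyme gene, was 407 and 519.6 units in the line-derived tumours against 34.9 to 2889.5 in the primary tumours (median 1178) and was not called (adjusted p = 0.591). Gclc stayed called without tumour 1 (adjusted p = 0.0102) and without tumour 2 (0.00106), Aldh1a1 and Cyp1b1 without tumour 2 only (0.0214 and 0.000132, against 0.141 and 0.511 without tumour 1), and Hmox1 in neither (0.0631 and 0.168).

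Trp53, the gene of p53, was 401 and 649.5 units in the line-derived tumours against 796 to 2266 in the primary tumours (median 1578) and 3017 in the culture, and was not called (log2 difference -1.47, SE 0.477, adjusted p = 0.0557). Cdkn1a, the p53 target that encodes the cell cycle inhibitor p21, was 4193 and 5528 units in the line-derived tumours against 599 to 4085 in the primary tumours (median 2537) (adjusted p = 0.126), and Mdm2, which encodes the ubiquitin ligase of p53, was 565 and 719 units in the line-derived tumours against 798 to 1251 in the primary tumours (median 1019.8) (adjusted p = 0.128). None of the 18 genes of p53 and its targets was called, with a median log2 difference of -0.39. Both line-derived tumours lay below all primary tumours in Trp53 and Mdm2 and above all of them in Cdkn1a, while the culture held more Trp53 and Mdm2 than any primary tumour.

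Among 24 patterning factors, Hoxc8 (149.8 and 45.3 against at most 14.1, log2 difference 5.77, SE 1.00, adjusted p = 0.00055) and Hoxc9 (13.96 and 29.4 against at most 27.003, log2 difference 3.98, SE 1.18, adjusted p = 0.0359) were higher and none was lower. The culture was at 0 and 2.43 for these. Hoxb9 was at 41.9 and 126 against 20.2 to 2051 and 582 in the culture (adjusted p = 0.264). Hoxc8 was called without tumour 2 (0.00375) and not without tumour 1 (0.0671), and Hoxc9 in neither (0.284 and 0.219). Of 16 immediate early genes, Fosb was lower (0 and 9.80 against 40.5 to 299, log2 difference -4.87, SE 1.43, adjusted p = 0.035, and 0.549 without tumour 1), and Fos was 891 and 759.8 units in the line-derived tumours against 338 to 1348 in the primary tumours (median 853) (adjusted p = 0.952). No gene was called among 16 protease and 32 growth factor and receptor genes. Mmp13, a collagenase gene, was 2415 and 4033 units in the line-derived tumours against 30.8 to 1521 in the primary tumours (median 224) (adjusted p = 0.0766), and Egfr, the epidermal growth factor receptor gene, was 906 and 879.9 units in the line-derived tumours against 486 to 2728 in the primary tumours (median 1786) (adjusted p = 0.248).

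The same step from primary to line-derived tumour was taken in the UPPL model, which shares no sample with the BBN comparison. The difference between the models in this step, BBN minus UPPL, was called in 1404 of the 15229 genes (9.22%), 161 higher (1.06%) and 1243 lower (8.16%). That split depends on the scaling, since it was 354 and 406 after quantile normalization, 326 and 701 after median-of-ratios scaling and 218 and 194 in edgeR on recovered reads. The median difference between the models over all genes was -0.55, and it was -0.0049 after quantile normalization.

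In UPPL 20.5% of all genes tested were called higher and 5.98% lower. Luminal genes were lower in 7 of 20 cases in BBN and in 16 of 20 in UPPL. Their median log2 difference was -2.07 in BBN and -3.52 in UPPL, and 2 of the 20, Elf3 and Fabp4, had a higher difference in BBN. Class II genes were called higher in 6 of 11 cases in BBN and 9 of 11 in UPPL, with medians of 3.26 and 3.39, and no class II gene was called in the difference between the models. In hypoxia and glycolysis the median was 1.44 in BBN and -0.12 in UPPL, and 6 of the 18 genes had a higher difference in BBN, where 1.06% of all genes did. The genes named here were chosen by their BBN difference, which is part of the difference between the models, so these values are not independent of that choice. Egln3 differed by 4.52 (SE 1.11, adjusted p = 0.0121), being 5.03 in BBN and 0.51 in UPPL. Ndrg1 differed by 4.77 (SE 0.955, adjusted p = 0.00318), from 3.56 to -1.21, and Bnip3 by 3.66 (SE 1.08, adjusted p = 0.0332), from 3.97 to 0.31. All 3 also passed after quantile normalization and after median-of-ratios scaling. Without tumour 1 Ndrg1 still passed (adjusted p = 0.0338) and Egln3 and Bnip3 did not (0.0769 and 0.147), and without tumour 2 the same held (0.0216, against 0.0637 and 0.135). In the cytotoxic list Tbx21 had a higher difference in BBN, as did Gzme and Ifng, which were tested only because the BBN963 tumours were high. Of the 21 fibroblast and matrix genes 2 had a lower difference in BBN, a share near the 8.16% of all genes, and the median was 2.48 against 6.99 in UPPL. Mesenchymal genes had medians of 0.80 and 3.94, and 2 of 14 had a lower difference in BBN.

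**Figure D5:**
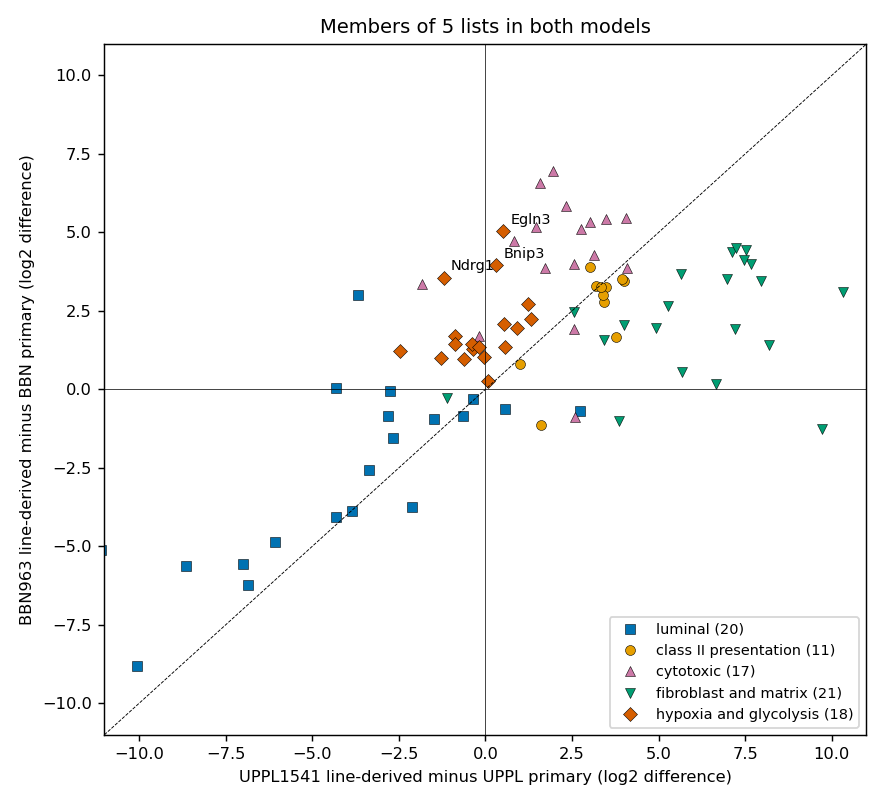
Log2 difference between line-derived and primary tumours for the members of 5 lists, in UPPL (horizontal axis, 4 against 9 tumours) and in BBN (vertical axis, 2 against 11). Each point is 1 gene and the dashed line marks equal differences. Luminal genes (blue) lie mostly in the lower left, class II genes (yellow) near the line in the upper right, fibroblast and matrix genes (green) mostly below the line and hypoxia and glycolysis genes (orange) above it.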

How the data were processed

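Stranded TruSeq mRNA libraries were made from RNeasy extracts, per the labels' protocols. The submitters' processing notes list mm9, SAMtools, RSEM and Picard 1.64, with no role given for any of them. The authors deposited 1 table of signal values for 21705 genes in 36 libraries, which by its title and its values are RSEM gene estimates scaled to an upper quartile of 1000 in each library. Dividing by the smallest step of a library gave whole numbers, within 0.05, for 95.2 to 97.3% of the low values in the BBN libraries. Higher values were not checked in this way. All values were rounded to whole numbers for edgeR and read here as reads.

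Values were fitted as log2(value + 1) with limma 3.58.1 (variance trend) in R 4.3.3 over 4 groups of tumours (26 libraries), on genes with at least 10 units in 2 libraries, with Benjamini-Hochberg adjustment over all genes. The culture library did not enter this fit, and it entered only 1 alternative, a fit over all 36 libraries. The members and the gene lists (543 of 549 entries matched) were chosen with earlier results of these data known. Named genes were the 8 largest rises and falls with a mean of at least 100 units in the higher group, the 4 largest rises with the culture already high and with it under 10 units, the 4 largest falls already in the culture and not in it, and each list's first 2 genes with up to 4 further by adjusted p, and some of these are left out of the text. Genes that make up a count of 5 or fewer were named after their values were seen. Values of some list members are not reported here. A reference promoter table (RefSeq, GRCm38.p6) gave sequences, and no coordinates were taken from mm9.

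Alternatives were a pseudocount of 10, other filters, quantile normalization, median-of-ratios scaling, no trend, array weights, other sets of libraries, each BBN tumour left out, and edgeR 4.0.16 quasi-likelihood on recovered reads. A fit that drops the 4 libraries in which low values were most often at 10 or more reads was added after seeing the data. Tested on simulated data (14418 genes), the fit of the line-derived against the primary tumours recovered 22% of 2-fold and 66% of 4-fold changes. The changed genes all had a primary mean above 100 units, and the simulated spread was normal with no low values removed. Recovery among genes of few reads was therefore not measured. Python 3.11.15, numpy 2.4.6, pandas 2.3.3 and matplotlib 3.10.9 were used.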

Additional observations from a re-analysis of the deposited data

Results flagged for a closer look

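Of 209 genes named by the rule and tested, 25 differed between the BBN and UPPL models in their step from primary to line-derived tumours, by a limma interaction at an adjusted p under 0.05. Among all genes tested 9.22% differed. Genes were named in part by their BBN difference or its adjusted p, which favours a difference between the models in the direction of the BBN value. Over all 15229 genes the median of this difference was -0.55 log2, against which these values are to be read.

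The 11 genes with a higher difference in BBN included genes of hypoxia, oxidant response, stress and cytotoxic cells. In the hypoxia list they were Hk2 (1.70 in BBN, -0.88 in UPPL, difference 2.58), Egln3 (5.03 in BBN, 0.51 in UPPL, difference 4.52), Ndrg1 (3.56 in BBN, -1.21 in UPPL, difference 4.77) and Bnip3 (3.97 in BBN, 0.31 in UPPL, difference 3.66). Hmox1 and Gdf15, a stress cytokine gene, differed as well, as Hmox1 (2.56 in BBN, -1.11 in UPPL, difference 3.68) and Gdf15 (3.48 in BBN, -3.88 in UPPL, difference 7.36). Among immune genes they were Gzme (6.58 in BBN, 1.57 in UPPL, difference 5.01), Ifng (4.71 in BBN, 0.82 in UPPL, difference 3.89), Cd28 (4.497 in BBN, -0.39 in UPPL, difference 4.88) and H2-T23 (1.91 in BBN, 0.36 in UPPL, difference 1.55), and Esam, an endothelial adhesion gene, stood at 0.83 and -2.12 (difference 2.95).

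The 14 genes with a lower difference in BBN included 6 of the largest falls, Fxyd4 (-8.56 in BBN, -0.42 in UPPL, difference -8.14), Itga2 (-8.31 in BBN, -1.85 in UPPL, difference -6.46), Fbp2 (-8.22 in BBN, -5.16 in UPPL, difference -3.06), Fer1l4 (-8.17 in BBN, -4.30 in UPPL, difference -3.87), Gpr126 (-8.02 in BBN, -0.91 in UPPL, difference -7.12) and Slc16a11 (-7.70 in BBN, -1.44 in UPPL, difference -6.26). The others were Cdh2 (-3.00 in BBN, 4.26 in UPPL, difference -7.26), Flt3 (-3.01 in BBN, 2.76 in UPPL, difference -5.78), Cd80 (-2.72 in BBN, 0.93 in UPPL, difference -3.64) and Cx3cl1 (-1.47 in BBN, 1.71 in UPPL, difference -3.19), then Trp53 (-1.47 in BBN, 0.45 in UPPL, difference -1.92), Mmp12 (1.65 in BBN, 5.23 in UPPL, difference -3.58), Hoxb9 (-2.66 in BBN, 5.13 in UPPL, difference -7.79) and Pax9 (1.92 in BBN, 6.51 in UPPL, difference -4.60). Fxyd4, Itga2, Fbp2, Fer1l4, Cdh2 and Flt3 were at 0 in both BBN963 tumours, so their log2 values depend on the pseudocount. Against the most frequent low values, the primary mean of Cdh2 was 1.94-fold higher, that of Fbp2 20.6-fold and that of Fer1l4 23.6-fold. On that footing a larger fall of Fbp2 and Fer1l4 in BBN than in UPPL cannot be resolved. Their differences did not pass after quantile normalization (adjusted p = 0.368 and 0.145). For Flt3 the primary mean of 11.8 units lay under the low value of 17.6 units, so its fall in BBN cannot be resolved. The difference of Trp53 did not pass after quantile normalization (adjusted p = 0.479) or after median-of-ratios scaling (0.0906). The labelled genotype of the UPPL model includes p53f/f, and its part in the Trp53 values was not tested.

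After quantile normalization 15 of the 25 stayed under the threshold, and after median-of-ratios scaling 21 did. Without line-derived tumour 1, 6 stayed, and without tumour 2, 11 did, and Gzme and Ifng, tested only because the BBN963 tumours were high, fell under the filter in both of these fits. The cause of these differences was not tested.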

How the results depend on the processing

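In every alternative that kept both line-derived tumours, none of the 318 higher and 864 lower genes changed sign, while without tumour 1 the sign changed in 4 lower genes and without tumour 2 in 1. The count of higher genes was 480 with a pseudocount of 10, 495 with array weights and 210 in the 13 BBN tumours alone. The count of lower genes was 1315 with array weights and 416 in edgeR on recovered reads. Leaving out 1 BBN tumour gave 78 to 412 higher genes and 154 to 1108 lower ones, the lowest counts without line-derived tumour 1 and the highest without primary tumour BBN963. A fit chosen after seeing the data, without the 4 libraries in which low values were most often at 10 or more reads, gave 75 and 234, with 4 of the lower genes of opposite sign. The count of higher differences between the models was 354 after quantile normalization, 326 after median-of-ratios scaling, 390 with array weights, 51 to 199 with 1 tumour left out and 41 without the 4 libraries, and that of lower ones was 406, 701, 2350, 245 to 1481 and 258, and 194 in edgeR. With a 4-fold rule, 32 higher and 123 lower genes were already in culture, and with no fold beyond the range 80 and 322 were. The cause of these changes was not tested, except that fewer samples enter when libraries are left out.

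Of 82 called genes named by the rule, 80 stayed called after quantile normalization, 77 after median-of-ratios scaling, 57 in edgeR, 56 in the 13 BBN tumours alone, 20 without tumour 1 and 33 without tumour 2. Some list medians moved by over 1.5 times: junction genes to -0.30 without tumour 1, T cell genes to 1.57 with a pseudocount of 10, mesenchymal genes to 0.53 in edgeR, oxidant genes to -0.59 without the 4 libraries and p53 genes to -0.25 after median-of-ratios scaling. Smooth muscle genes went from -0.80 to -2.53 in edgeR. Some list medians changed sign. Without tumour 2, skeletal muscle genes went from 4.03 to -0.45, with 11 genes still tested, and dendritic genes from 0.46 to -0.75. Without tumour 1, B cell genes went from 1.08 to -0.41. Genes that were not called also changed sign at times. Krt5 was 0.087 after median-of-ratios scaling and 0.007 in edgeR, and edgeR gave -0.18 for Zeb1, -0.008 for S100a9 and -0.095 for Kit. Without the 4 libraries, Plin4 was 0.684, Kit -0.156 and Fos -0.033. With 1 tumour left out, Krt5 ranged from -0.127 to 0.013, Actg2 from -1.122 to 0.306, Ckm from -2.404 to 7.474, Car3 from -0.634 to 8.956, Cfd from 0.0 to 5.679 and Cd209a from -1.295 to 4.239. Likewise Plin4 ranged from -4.494 to 0.545, Kit from -0.14 to 0.553 and Fos from -0.05 to 0.186. No paired analysis was possible because both line-derived tumours come from 1 line. Only primary tumour BBN963 carries the number of that line, and whether the line came from it is not given. With 2 line-derived tumours of 1 line, and a most frequent low value of up to 19 reads, small changes and genes of few reads are beyond what these libraries can resolve.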
